A study of Mus musculus with 20 samples.

Results

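Imprinted genes are expressed mainly from the copy inherited from 1 parent, and many of them set how fast the embryo and its tissues grow. The 10 genes described here, Mest, Cdkn1c, Igf2, H19, Igf2r, Dlk1, Meg3, Peg3, Plagl1 and Grb10, are 10 of the 23432 gene symbols counted in 12 RNA libraries of sorted mouse skin cells. They were taken as rows of the count files by name, in all 4 groups of libraries. The list was chosen by the measured levels of Mest and Cdkn1c, which stood higher in knockout (KO) than in heterozygous (Het) epidermis at embryonic day 13 (E13), so the values of that contrast are a description and carry no test for any of the 10. Mest and Cdkn1c carry no test in the other contrasts either, since libraries that led to their choice stand on 1 side of each.

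The groups, with 3 libraries each, were E13 KO epidermis with the genotype {delta}Np63 -GFP KI-KO, E13 Het epidermis with the genotype {delta}Np63 -GFP KI-Het, Het epidermis at embryonic day 9 (E9; replicates 1, 2 and 4) and Het dermis at E13. All 4 groups carried the GFP knock-in at the delta-N unit of Trp63, the gene of the epidermal transcription factor p63, so no group was wild type. From dissociated back skin, GFP-positive cells were sorted as epidermis and cells stained for CD140a, encoded by the mesenchymal receptor gene Pdgfra, as dermis. The labels give no number of animals behind a library and do not say that replicates came from separate embryos, so a p-value here measures only the spread between these samples. Ribosomal RNA was removed from epidermal RNA and dermal RNA was selected with oligo(dT), so tissue and library preparation cannot be told apart. The libraries are bulk samples in which fewer cells of a type and less RNA per cell cannot be told apart, and the counts pool the maternal and the paternal allele of each gene.

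In mice the paternal copy gives most of the RNA of Mest, Igf2, Dlk1, Peg3 and Plagl1, and the maternal copy that of Cdkn1c, H19, Igf2r, Meg3 and, outside neurons, Grb10. Igf2 is a growth factor of the fetus, Igf2r takes it up for degradation, Cdkn1c (p57Kip2) stops the cell cycle by inhibiting cyclin-dependent kinases, and Grb10 damps signalling of the insulin and insulin-like growth factor receptors. H19 and Meg3 are long noncoding RNAs that share a chromosomal domain with Igf2 and with Dlk1. Several of these genes are high in proliferating embryonic tissue and decline after birth.

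By position, all 10 genes have an entry in the RefSeq annotation of GRCm38.p6. Mest lies at chr6:30733506-30748466 and its annotated span meets that of Copg2 and holds Mir335. Cdkn1c lies at chr7:143458339-143461059, Igf2 at chr7:142650768-142666816 and H19 at chr7:142575530-142578146, with 72.6 kb between H19 and Igf2. Dlk1 lies at chr12:109452485-109463336 and Meg3 at chr12:109540996-109571729, 77.7 kb apart. The others are Igf2r at chr17:12682406-12769706, Peg3 at chr7:6703892-6730462, Plagl1 at chr10:13090832-13131694 and Grb10 at chr11:11930499-12037428. Of the 10 genes, 6 (Mest, Igf2, H19, Igf2r, Meg3 and Peg3) overlap another counted gene. Whether counting used the strand is not stated in these sources, so reads in those overlaps may be shared or lost.

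Promoter windows of 250 bases before to 50 after a RefSeq start were found for 8 of the 10 genes, with 15 windows in all; Cdkn1c and H19 had no entry. They were searched on either strand for TGCCGC, the hexamer that the zinc finger protein ZFP57 binds when its CpG is methylated. It was found in 6 of the 15 windows, against 11.6% of 32851 RefSeq promoter windows of the same length. The windows of Mest starts 2 and 3 lie 3 bases apart and hold the same hexamers, so with them counted once it was 5 of 14. A p53 family half-site, matched on either strand, was found in 1 of the 15, an Igf2 window, against 8.36% of all windows. The windows printed are those of the first and second Mest starts, since Mest was among the genes that chose the list, and of Plagl1 and the first Grb10 start, the tested genes called between E9 and E13. Capitals mark the hexamer or its reverse complement, and each is written 5′ to 3′ on the gene's strand, from RefSeq GRCm38.p6. The Mest windows are chr6:30733256-30733555 (+) and chr6:30737800-30738099 (+), that of Plagl1 is chr10:13090582-13090881 (+) and that of Grb10 is chr11:12037371-12037670 (-).
Mest start 1: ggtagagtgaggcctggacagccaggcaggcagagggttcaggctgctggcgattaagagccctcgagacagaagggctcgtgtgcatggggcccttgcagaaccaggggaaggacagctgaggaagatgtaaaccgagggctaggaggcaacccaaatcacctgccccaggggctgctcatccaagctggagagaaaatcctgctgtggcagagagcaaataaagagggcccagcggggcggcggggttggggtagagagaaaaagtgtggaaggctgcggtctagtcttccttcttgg
Mest start 2: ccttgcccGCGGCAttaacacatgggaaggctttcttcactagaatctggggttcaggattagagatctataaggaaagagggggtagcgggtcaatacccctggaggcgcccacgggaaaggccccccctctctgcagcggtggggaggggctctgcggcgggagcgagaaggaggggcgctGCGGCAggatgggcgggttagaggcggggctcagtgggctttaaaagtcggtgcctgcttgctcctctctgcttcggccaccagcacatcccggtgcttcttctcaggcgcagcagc
Plagl1: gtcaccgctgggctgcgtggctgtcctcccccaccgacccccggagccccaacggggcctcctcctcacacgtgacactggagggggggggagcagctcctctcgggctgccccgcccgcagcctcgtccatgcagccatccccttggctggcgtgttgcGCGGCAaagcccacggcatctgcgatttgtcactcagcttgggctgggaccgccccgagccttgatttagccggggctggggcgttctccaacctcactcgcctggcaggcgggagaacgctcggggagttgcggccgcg
Grb10 start 1: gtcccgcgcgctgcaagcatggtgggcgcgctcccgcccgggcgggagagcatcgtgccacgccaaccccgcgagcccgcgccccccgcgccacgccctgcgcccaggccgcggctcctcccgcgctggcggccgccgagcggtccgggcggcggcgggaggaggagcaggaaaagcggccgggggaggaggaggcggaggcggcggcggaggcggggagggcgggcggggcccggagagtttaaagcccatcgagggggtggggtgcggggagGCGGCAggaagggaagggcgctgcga
The upstream Mest window holds no hexamer and 8 CpG dinucleotides, and the downstream window holds 2 hexamers and 17 CpG, beside a median of 7 CpG over all windows. The Plagl1 window holds 1 hexamer and 26 CpG and the Grb10 window 1 hexamer and 45 CpG. The counts are per gene, so which start was used is not resolved.

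Mest also hosts miR-335, a microRNA gene in an intron of its transcription unit, and its mature arms are shown with the seed, bases 2 to 8, in capitals (RefSeq GRCm38.p6, plus strand, chr6:30741314-30741336 and chr6:30741354-30741375).
mmu-miR-335-5p: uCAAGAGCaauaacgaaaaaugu
mmu-miR-335-3p: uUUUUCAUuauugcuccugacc
The seeds of the arms differ. These libraries were not made for small RNA: the Mir335 row held 0, 7 and 27 counts in KO, 0, 0 and 1 in E13 Het, and 0, 23 and 17 in E9 Het epidermis, and 0 in each dermal library, so levels of the mature microRNA were not measured.

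Epidermal libraries held 3373819 to 7777808 gene counts and dermal libraries 16931664 to 33386872. Levels are given in CPM, counts scaled to a common total, with totals adjusted by TMM across the 12 libraries, and folds and log2 fold changes come from edgeR fits with their own scaling. Trp63 had 23.0, 25.0 and 20.4 CPM in KO, 519.5, 611 and 454 CPM in E13 Het and 278, 218 and 122 CPM in E9 Het epidermis, and 0.462, 0 and 2.15 CPM in dermis. Against E13 Het, KO epidermis had a 23.3-fold lower level (log2 fold change -4.54 ± 0.28, edgeR adjusted p 1.5e-06). The 10 epidermal markers summed to 3129 to 4089 CPM in KO, 3674 to 4979 in E13 Het and 2395 to 2432 in E9 Het epidermis, and to 45.1 to 64.5 CPM in dermis. These sums hide opposite differences. Against E13 Het, 4 of the 10 stood wholly higher in KO and 5 wholly lower, beside 10.7% and 9.35% of all genes tested. Krt5 was 36.0-fold lower (edgeR adjusted p 9.4e-06) and Epcam 2.28-fold higher (p 0.000310). Krt14 and Krt15 were also lower and Krt8 and Krt18 higher, without passing. The 12 dermal mesenchyme markers summed to 1293 to 2452 CPM in KO, 488 to 1634 in E13 Het and 305 to 355 in E9 Het epidermis, against 32822 to 45849.5 CPM in dermis. The 10 neuronal markers summed to 202 to 269.7 CPM in KO, 37.3 to 126 in E13 Het, 101 to 144 in E9 Het epidermis and 227 to 275 in dermis. The 6 cartilage markers summed to 54.6 to 184 CPM in KO, 93.1 to 140.3 in E13 Het and 518 to 654 in E9 Het epidermis, and to 29.2 to 116 CPM in dermis. The 9 counted skeletal muscle markers summed to at most 34.0 CPM in each library of the other groups, against 38.4 to 276 CPM in E9 Het epidermis. Endothelial and erythroid sums were at most 49.2 CPM in each epidermal library. Of the mesenchyme markers, Lum, Dpt and Twist2 had 0 counts in all 3 E9 libraries.

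Of the 12 libraries, E13 Het replicate 3 stands apart for these genes. It was above both other E13 Het libraries for 9 of the 10 genes, and below them for Mest. Over the mean of replicates 1 and 2, its level was 14.9-fold for Dlk1, 5.63-fold for Meg3, 2.86-fold for Igf2, 2.65-fold for Igf2r and 2.23-fold for Peg3. It was 1.89-fold for Grb10, 1.64-fold for H19, 1.19-fold for Cdkn1c, 1.08-fold for Plagl1 and 0.855-fold for Mest. Among genes chosen after their values were seen, Rian stood at 8.26-fold, Peg10 at 6.63-fold, Zdbf2 at 4.46-fold and the simple-epithelium keratin gene Krt18 at 14.9-fold. Its dermal mesenchyme sum, 488 CPM, was the lowest of the E13 Het libraries, while its neuronal sum (126 CPM, against 37.3 and 71.9 CPM in replicates 1 and 2), its cartilage sum (140.3 CPM, against 93.1 and 122 CPM) and its epidermal sum (4979 CPM) were the highest, and the part of any cell type in its levels was not tested. The results of the 10 genes that rest on E13 Het epidermis are therefore given with and without it. The library was singled out by its levels of these same genes. A p-value from a fit without it describes how far a result depends on that library and does not stand as a separate test.

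**Figure D1:**
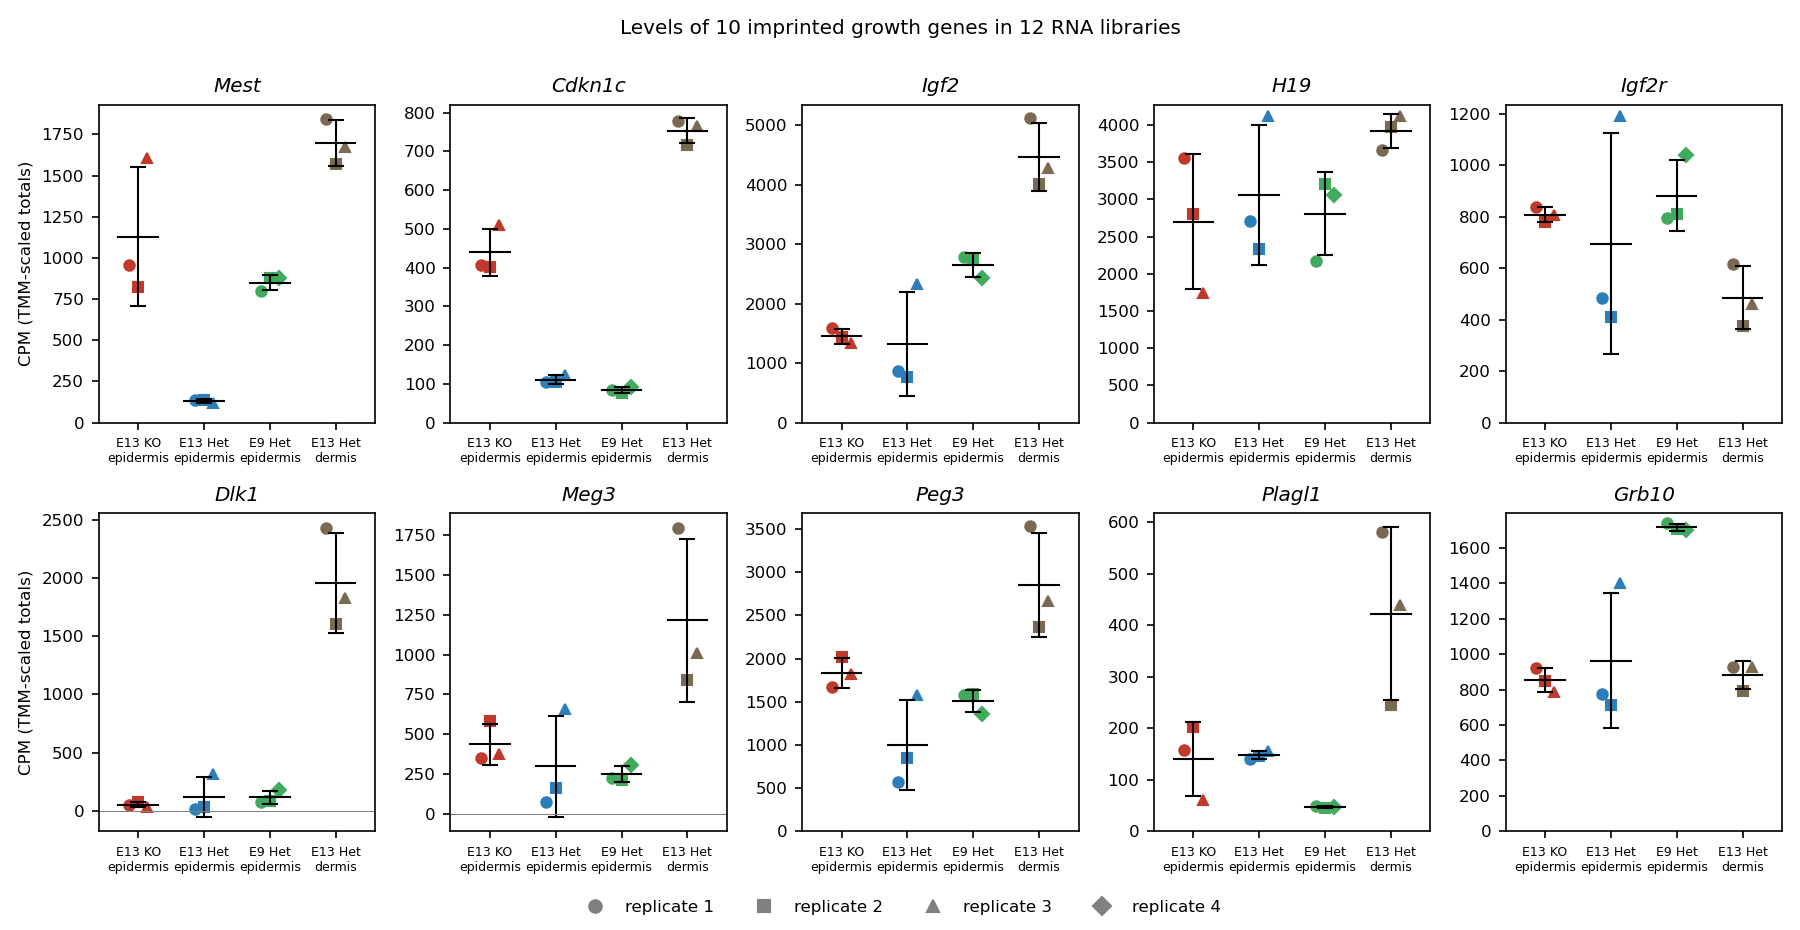
Level of each of the 10 genes in the 12 libraries, in CPM over TMM-scaled totals on linear axes, with 1 panel per gene. Points are libraries (marker shape gives the replicate number), the long bar is the mean and the error bar the SD of 3 libraries. Mest stands at 117 to 139 CPM in E13 Het epidermis and at 796 CPM or more in each other library, and E13 Het replicate 3 is the high point of its group for Dlk1, Meg3, Igf2, Igf2r, Peg3, Grb10 and H19.

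The comparison of KO with Het epidermis at E13 asked what differs in skin epithelium without the delta-N isoform of p63. Mest, which encodes a protein of the alpha/beta hydrolase fold, had 956, 821 and 1610.1 CPM in KO epidermis, against 136, 139 and 117 CPM in E13 Het epidermis. The lowest KO library stood above the highest E13 Het library, and KO replicate 3 was the highest of the KO libraries. The fitted difference was 8.60-fold, a log2 fold change of 3.10 ± 0.23, and 3.04 without E13 Het replicate 3. Cdkn1c had 408, 401 and 510.0 CPM in KO epidermis, against 105, 103 and 124 CPM in E13 Het epidermis. Its groups did not overlap either, and the fitted difference was 3.95-fold (1.98 ± 0.17; 2.08 without E13 Het replicate 3). With any 1 of the 6 libraries left out, the log2 fold change lay from 2.72 to 3.29 for Mest and from 1.82 to 2.08 for Cdkn1c.

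Neuronal marker sums were higher in every KO library than in any E13 Het library. Mesenchyme sums were 1293, 2452 and 1415 CPM in KO and 586, 1634 and 488 CPM in E13 Het epidermis, overlapping only through E13 Het replicate 2. The median log2 fold change of the 11 mesenchyme markers tested was 0.57, beside 0.03 over all genes, and none was called. Col3a1 alone was wholly higher in KO (2.15 ± 0.72, edgeR adjusted p 0.284). Dermis held more Mest and Cdkn1c than any E13 Het epidermal library. The KO mesenchyme sums were 3.36% to 6.37% of the dermal mean, while mean Mest in KO epidermis was 66.5% and mean Cdkn1c 58.4% of their dermal means. For the other members wholly lower in E13 Het epidermis than in dermis, the KO mean varied as a share of the dermal mean. It was 64.3% for Peg3, 35.8% for Meg3, 33.3% for Plagl1, 32.5% for Igf2 and 2.56% for Dlk1. RNA selection also differed between the tissues, so these percentages mix tissue with library preparation. The KO neuronal sums were 81.3% to 109% of the dermal mean, but the sums drew on different genes. In KO epidermis the highest means were those of Ncam1 (90.2 CPM), Map2 (81.2 CPM) and Nefm (18.8 CPM). The dermal sums rested mostly on Ncam1 (mean 184 CPM). Tubb3, Elavl3, Elavl4 and Sox2 each averaged less in KO than Stmn2, at 4.32 CPM. Of the 9 neuronal markers tested, 4 stood wholly higher in KO than in E13 Het epidermis. Map2 alone was called (edgeR adjusted p 0.0408). The part of neuronal cells in the levels of the members was not tested.

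Peg3, a zinc finger gene, was the only other member whose groups did not overlap. It had 1674, 2016 and 1817 CPM in KO epidermis, against 570.3, 849 and 1579.7 CPM in E13 Het epidermis (log2 fold change 0.87 ± 0.30; 1.37 without E13 Het replicate 3). So 3 of the 10 genes were above E13 Het in every KO library and none was below, where 10.7% of the 13052 genes tested stood wholly above and 9.35% wholly below (20% in either direction). Nothing is read from that count, since this contrast chose the list. By the adjusted p, 2.2% of all genes were called, 0.835% higher and 1.36% lower.

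Among the growth factor genes and their receptor, the difference moved with E13 Het replicate 3. Igf2 had 1583, 1438 and 1332 CPM in KO epidermis, against 866, 768 and 2335 CPM in E13 Het epidermis. The 3 KO libraries stood between the lower pair of Het libraries and the high one, and the log2 fold change was 0.12 ± 0.39 with all libraries and 0.82 without E13 Het replicate 3. Igf2r had 837, 779 and 808 CPM in KO epidermis, against 485, 412 and 1189.7 CPM in E13 Het epidermis (0.20 ± 0.35; 0.84 without that library). Dlk1, which encodes a transmembrane relative of the Notch ligands, had 50.8, 71.2 and 28.4 CPM in KO epidermis, against 10.6, 32.1 and 318 CPM in E13 Het epidermis. The sign of its log2 fold change turned, at -1.27 ± 1.16 with all libraries and 1.22 without E13 Het replicate 3.

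Meg3, the noncoding RNA of the Dlk1 domain, had 348, 586 and 372 CPM in KO epidermis, against 71.2, 164 and 660.3 CPM in E13 Het epidermis. Every KO library stood above E13 Het replicates 1 and 2 and below replicate 3, and the log2 fold change was 0.53 ± 0.75 with that library and 1.89 without it. H19 had 3555, 2802 and 1743 CPM in KO epidermis, against 2709.6, 2332 and 4123 CPM in E13 Het epidermis, and its log2 fold change was -0.19 ± 0.29 with E13 Het replicate 3 and 0.09 without it. Plagl1, a zinc finger factor gene also called Zac1, had 157, 203 and 61.0 CPM in KO epidermis, against 139.8, 146 and 155 CPM in E13 Het epidermis (-0.08 ± 0.31; -0.03 without E13 Het replicate 3). KO replicate 3 was the low library there. Grb10 had 921, 849.7 and 787 CPM in KO epidermis, against 775, 711 and 1404 CPM in E13 Het epidermis (-0.19 ± 0.21; 0.19 without E13 Het replicate 3).

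**Figure D2:**
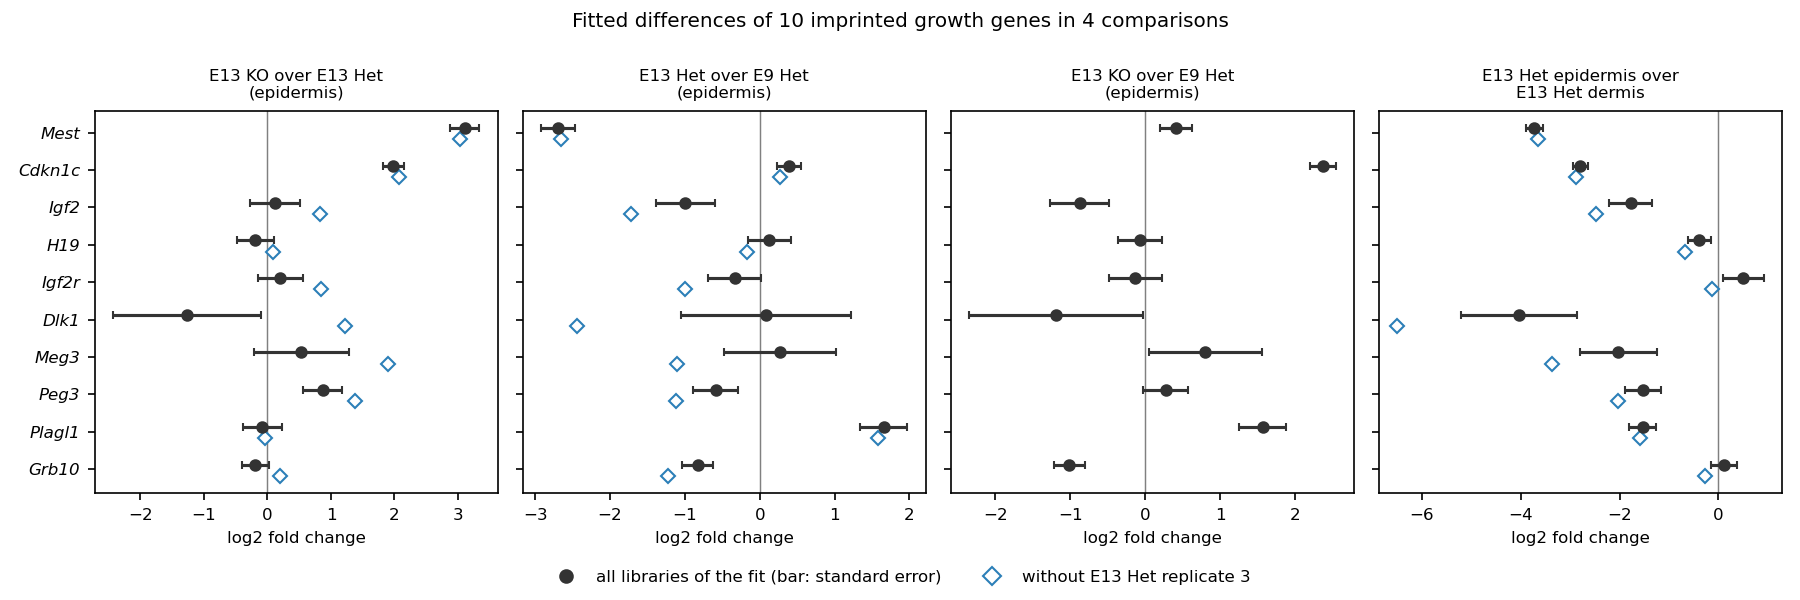
Fitted log2 fold change of each gene in 4 comparisons, the group named first in a panel's title over the group named after it. Filled points with bars are the fit with all libraries and its standard error, and open diamonds are the fit without E13 Het replicate 3. Mest and Cdkn1c hardly move between the fits, while Dlk1 lies at -1.27 with that library and at 1.22 without it in KO over E13 Het.

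Next, E13 Het was set against E9 Het epidermis, the course from the early surface layer to stratifying epidermis. These libraries of E13 Het epidermis also serve in the contrast with KO, and those of E9 Het serve in the next one, so the comparisons are not independent. Mest had 136, 139 and 117 CPM in E13 Het epidermis, against 796, 879 and 875 CPM in E9 Het epidermis, a fitted 6.47-fold lower level (log2 fold change -2.69 ± 0.23; -2.65 without E13 Het replicate 3). No library of 1 stage reached the other stage. Cdkn1c had 105, 103 and 124 CPM in E13 Het epidermis, against 84.5, 77.0 and 92.4 CPM in E9 Het epidermis (0.40 ± 0.16; 0.28 without that library), close levels that did not overlap. Of the 10 genes, 2 stood wholly above E9 (Cdkn1c and Plagl1) and 3 wholly below (Mest, Igf2 and Grb10). Over all genes tested 29% did not overlap, 14.9% above and 14% below. Nothing is read from that count, since it includes Mest and Cdkn1c, whose choice rested on these E13 Het libraries.

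Of the other 8 genes, 2 were called at E13 against E9, Plagl1 higher and Grb10 lower, where 7.29% of all 13052 genes tested were called (4.77% higher and 2.53% lower). Plagl1 had 139.8, 146 and 155 CPM in E13 Het epidermis, against 48.6, 44.9 and 47.3 CPM in E9 Het epidermis. It rose 3.15-fold (1.65 ± 0.32, edgeR adjusted p 0.00564; 1.59 without E13 Het replicate 3), with each E13 library above each E9 library, and the call held whichever of the 6 libraries was left out. Grb10 had 775, 711 and 1404 CPM in E13 Het epidermis, against 1739, 1707 and 1703 CPM in E9 Het epidermis. It fell 1.77-fold (-0.83 ± 0.21, edgeR adjusted p 0.0314; -1.23 without E13 Het replicate 3), with every E13 library below every E9 library. That call was lost without E13 Het replicate 1 or 2 or any 1 of the E9 libraries, with an adjusted p up to 0.114. It was also lost in a fit of these groups alone (0.0750).

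Igf2 had 866, 768 and 2335 CPM in E13 Het epidermis, against 2776, 2757 and 2424 CPM in E9 Het epidermis. All 3 E13 libraries stood below all E9 libraries, but the difference did not pass (-0.996 ± 0.40, edgeR adjusted p 0.215). Without E13 Het replicate 3 it was -1.72 with an edgeR adjusted p of 7.5e-07. Peg3 had 570.3, 849 and 1579.7 CPM in E13 Het epidermis, against 1578, 1584 and 1362 CPM in E9 Het epidermis (-0.59 ± 0.30, p 0.342), and without that library -1.11 (p 0.000237). Igf2r had 485, 412 and 1189.7 CPM in E13 Het epidermis, against 797, 809 and 1041 CPM in E9 Het epidermis (-0.33 ± 0.35, p 0.715), and without it -0.99 (p 0.000898). These p are edgeR's, adjusted over all genes, and those without E13 Het replicate 3 describe the dependence on that library only.

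Dlk1 had 10.6, 32.1 and 318 CPM in E13 Het epidermis, against 77.1, 87.5 and 179 CPM in E9 Het epidermis (0.08 ± 1.14, edgeR adjusted p 0.985; without E13 Het replicate 3, -2.44 and 0.0321). Meg3 had 71.2, 164 and 660.3 CPM in E13 Het epidermis, against 228, 212 and 305 CPM in E9 Het epidermis (0.27 ± 0.75, edgeR adjusted p 0.908; without it, -1.11 and 0.129). In both genes E13 Het replicate 1 was the lowest and replicate 3 the highest of the 6 libraries. H19 had 2709.6, 2332 and 4123 CPM in E13 Het epidermis, against 2166, 3202 and 3055 CPM in E9 Het epidermis (0.13 ± 0.29, edgeR adjusted p 0.885; -0.17 without it). The number of the 8 genes called was 6 without E13 Het replicate 3, where 812 of all genes were called. With it the number was 2, where 952 of all genes were called. That library was singled out by its levels of these genes, so the higher number is no separate result.

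KO epidermis at E13 was also set against E9 Het epidermis, where genotype and stage differ together. Mest had 956, 821 and 1610.1 CPM in KO epidermis, against 796, 879 and 875 CPM in E9 Het epidermis, with overlapping libraries and a log2 fold change of 0.41 ± 0.21. Cdkn1c stood 5.19-fold above E9 (2.38 ± 0.17), with 408, 401 and 510.0 CPM in KO epidermis, against 84.5, 77.0 and 92.4 CPM in E9 Het epidermis. The order of mean levels was thus dermis, KO, E9 and E13 Het for Mest, with overlap of dermis with KO and of KO with E9. For Cdkn1c it was dermis, KO, E13 Het and E9, with no overlap between neighbours. Of the 10 genes, 4 stood wholly above E9 (Cdkn1c, Meg3, Peg3 and Plagl1) and 3 wholly below (Igf2, Dlk1 and Grb10). Over all genes tested 32% did not overlap, 16.7% above and 15.4% below. Nothing is read from that count, since it includes Mest and Cdkn1c, whose choice rested on these KO libraries.

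Of the other 8 genes, 2 were called against E9, again Plagl1 higher and Grb10 lower, where 7.67% of all genes were called (4.62% higher and 3.05% lower). Plagl1 had 157, 203 and 61.0 CPM in KO epidermis, against 48.6, 44.9 and 47.3 CPM in E9 Het epidermis, and rose 2.97-fold (1.57 ± 0.32, edgeR adjusted p 0.00792). KO replicate 3 lay nearest to the E9 level, and the call held narrowly with each library left out (edgeR adjusted p up to 0.0495). Grb10 had 921, 849.7 and 787 CPM in KO epidermis, against 1739, 1707 and 1703 CPM in E9 Het epidermis, and fell 2.02-fold (-1.01 ± 0.21, edgeR adjusted p 0.0105). That call was lost without KO replicate 2 (0.0561) or KO replicate 3 (0.0526).

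The remaining 6 genes did not pass against E9. Igf2 and Dlk1 stood below E9 in every KO library (-0.88 ± 0.39, edgeR adjusted p 0.262, and -1.19 ± 1.16, p 0.672). Meg3 and Peg3 stood above it in every KO library (0.81 ± 0.75, p 0.652, and 0.28 ± 0.30, p 0.703). In a fit of KO and E9 alone, without E13 Het epidermis, Igf2 (-0.87, edgeR adjusted p 0.000240) and Meg3 (0.81, p 0.0308) were called too. H19 and Igf2r overlapped between the groups (-0.07 ± 0.29, p 0.945, and -0.13 ± 0.35, p 0.908).

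E13 Het epidermis was then compared with E13 Het dermis of the same genotype and age. Of the 8 genes tested, 4 were called, Igf2, Dlk1, Peg3 and Plagl1, all lower in epidermis, where 34.7% of the 12975 genes tested were called (16.5% higher and 18.2% lower). With raw library totals in place of TMM, 3156 genes were higher and 1438 lower in epidermis, against 2140 and 2364 with TMM, and all 4 stayed called and lower. Dlk1 had 10.6, 32.1 and 318 CPM in epidermis, against 2432, 1608 and 1831 CPM in dermis, and was 16.3-fold lower in epidermis (-4.03 ± 1.17, edgeR adjusted p 0.0349). Each epidermal library stood below each dermal one, but the call was lost without E13 Het replicate 1 or 2 or any 1 dermal library, with p up to 0.0912. Igf2 had 866, 768 and 2335 CPM in epidermis, against 5114, 4011 and 4284 CPM in dermis (3.42-fold lower, -1.77 ± 0.43, p 0.0174; lost without dermal replicate 1 or 2, p up to 0.0628). Peg3 had 570.3, 849 and 1579.7 CPM in epidermis, against 3533, 2367 and 2669.6 CPM in dermis (2.88-fold lower, -1.53 ± 0.37, p 0.0151; lost without E13 Het replicate 2 or dermal replicate 1, p up to 0.0710). Without E13 Het replicate 3 the log2 fold changes were -6.49 for Dlk1, -2.48 for Igf2 and -2.02 for Peg3, each called.

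Plagl1 had 139.8, 146 and 155 CPM in epidermis, against 581, 246 and 439 CPM in dermis, and was 2.89-fold lower in epidermis (-1.53 ± 0.27, edgeR adjusted p 0.00348; -1.58 without E13 Het replicate 3), a call that held with each library left out. Meg3 had 71.2, 164 and 660.3 CPM in epidermis, against 1798, 839.8 and 1008 CPM in dermis. Its groups did not overlap, yet it passed (-3.37, edgeR adjusted p 0.00535) only without E13 Het replicate 3, and with it the values were -2.03 ± 0.78 and 0.0844. H19 had 2709.6, 2332 and 4123 CPM in epidermis, against 3664, 3977 and 4119.9 CPM in dermis (-0.39 ± 0.23, p 0.236; -0.67 and 0.0424 without that library, 0.07 with raw totals). Igf2r had 485, 412 and 1189.7 CPM in epidermis, against 618, 376 and 462 CPM in dermis (0.51 ± 0.41, p 0.384; -0.14 and 0.696 without it). Grb10 had 775, 711 and 1404 CPM in epidermis, against 928, 791 and 928 CPM in dermis (0.11 ± 0.26, p 0.791; -0.28 and 0.296 without it).

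For the pair that chose the list, dermis held the highest mean levels. Mest had 136, 139 and 117 CPM in epidermis, against 1845, 1571 and 1675 CPM in dermis, a fitted 13.2-fold lower level (log2 fold change -3.72 ± 0.17; -3.65 without E13 Het replicate 3). Cdkn1c had 105, 103 and 124 CPM in epidermis, against 778, 717 and 765 CPM in dermis, a fitted 6.92-fold lower level (-2.79 ± 0.16; -2.89 without that library). With the pair, 7 of the 10 genes stood wholly below dermis and none wholly above, where 56% of all genes tested did not overlap, 24.8% above and 31.2% below. The median log2 fold change of the 10 genes was -1.65, beside -0.13 over all genes tested in this comparison. The count and the median include the pair, whose choice rested on these E13 Het libraries, so nothing is read from either.

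Ratios of levels within a library follow genes that share a domain or a ligand and its receptor, and they describe each library without a correction for transcript length. Meg3 over Dlk1 was 6.85, 8.22 and 13.1 in KO, 6.70, 5.09 and 2.08 in E13 Het and 2.95, 2.42 and 1.71 in E9 Het epidermis, and 0.74, 0.52 and 0.55 in dermis. E13 Het replicate 3, high for both genes, had the lowest ratio of its group. H19 over Igf2 was 2.25, 1.95 and 1.31 in KO, 3.13, 3.04 and 1.77 in E13 Het and 0.78, 1.16 and 1.26 in E9 Het epidermis, and 0.72, 0.99 and 0.96 in dermis. Igf2 over Igf2r was 1.89, 1.85 and 1.65 in KO and 1.79, 1.87 and 1.96 in E13 Het epidermis, a narrow range in which E13 Het replicate 3 did not stand apart. It was 3.48, 3.41 and 2.33 in E9 Het epidermis and 8.28, 10.7 and 9.28 in dermis.

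The genes whose log2 CPM ran most like Mest over the 9 epidermal libraries, by Pearson's r among 10523 genes, were B4galt5 (0.982), Wdr19 (0.961), Zfp7 (0.957) and Obsl1 (0.950). B4galt5, a galactosyltransferase gene, had 95.2, 88.7 and 168 CPM in KO, 31.8, 33.3 and 25.7 CPM in E13 Het and 76.1, 82.8 and 84.3 CPM in E9 Het epidermis. It shared with Mest the low E13 Het libraries and the high KO replicate 3. For Cdkn1c they were Cdv3 (0.990), Ddx58 (0.976), Fam43b (0.968) and Slitrk3 (0.968). Cdv3 had 1416, 1342 and 1344 CPM in KO, 319, 418 and 426 CPM in E13 Het and 286, 281 and 314 CPM in E9 Het epidermis. Fam43b and Slitrk3 had at most 5 counts in any Het epidermal library, so their likeness rests on the KO libraries. The 9 points fall into 3 groups, and such likeness describes these libraries only.

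Another 55 imprinted genes were listed for comparison, of which 42 passed the filter on low counts in the epidermal fit. In KO against E13 Het epidermis 0 of the 42 passed with edgeR, where 2.2% of all genes were called. Of the 42, 4 were under an unadjusted p of 0.05, and DESeq2 called 4 (Gnas, Nnat, Ppp1r9a and Slc38a4). Without E13 Het replicate 3, edgeR called 4 (Peg10, Ppp1r9a, Rian and Zdbf2), with 348 of all genes called. The list's median log2 fold change was 0.38, beside 0.03 over all genes; in E13 Het over E9 it was -0.37, in KO over E9 -0.14. Copg2, the neighbour whose span meets that of Mest, stood at 100.4 ± 8.11 CPM in KO and 99.1 ± 25.5 CPM in E13 Het epidermis (SD, n = 3 each; 0.01 ± 0.23, edgeR adjusted p 0.998). Phlda2, a maternally expressed neighbour of Cdkn1c, had 26 counts over the 3 KO and 12 over the 3 E13 Het libraries. Rian, a noncoding RNA downstream of Meg3, stood at 238 ± 39.9 CPM in KO and 167 ± 205 CPM in E13 Het epidermis (0.51 ± 0.89, edgeR adjusted p 0.930).

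In E13 against E9 Het epidermis, 4 of the 42 passed, 2 higher and 2 lower, beside 7.29% of all genes (4.77% higher and 2.53% lower). Osbpl5, an oxysterol-binding protein gene, had 63.2 ± 17.2 CPM in E13 Het and 12.1 ± 4.02 CPM in E9 Het epidermis (SD, n = 3 each) and rose 5.25-fold (2.39 ± 0.35, edgeR adjusted p 0.000572). Dcn, a proteoglycan gene of connective tissue, had 1153 counts over the E13 Het libraries and 0 over the E9 libraries. With 3 counts set over the E9 group as the floor, it was at least 357-fold higher at E13 (edgeR adjusted p 0.000101). Dcn averaged 1223 CPM in dermis, 55.1 CPM in E13 Het and 24.6 CPM in KO epidermis. The mesenchyme sums above were also higher in every E13 Het library than in any E9 library. Between KO and E13 Het epidermis those sums overlapped through E13 Het replicate 2. Mean Dcn was lower in KO, but its libraries overlapped and it did not pass (-1.17 ± 0.59, edgeR adjusted p 0.507). The part of mesenchymal cells in the Dcn level was not tested. Ppp1r9a fell 1.996-fold (-0.997 ± 0.27, edgeR adjusted p 0.0363) and Ndn, which encodes necdin, fell 3.43-fold (-1.78 ± 0.50, p 0.0462). The Ndn call was lost whichever of the 6 libraries was left out (p up to 0.173), and that of Ppp1r9a for each but E13 Het replicate 3 (p up to 0.154).

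Against E9, KO epidermis had 4 of the 42 higher and none lower with edgeR, beside 4.62% higher and 3.05% lower over all genes. DESeq2 called 10, 6 higher and 4 lower. Casd1 and Ndn were among the lower, with edgeR log2 fold changes of -0.85 and -1.29 and adjusted p of 0.130 and 0.138. Osbpl5 had 58.5 ± 7.41 CPM in KO epidermis and rose 4.82-fold (2.27 ± 0.35, edgeR adjusted p 0.000943), and Dcn, with 464 counts over the KO libraries, was at least 148-fold higher (p 0.000263). Trappc9 rose 2.25-fold (p 0.0218), and was not called without KO replicate 2 or 3 or E9 replicate 2 or 4 (p up to 0.0934). Rasgrf1, a Ras exchange factor gene, had 164 counts over the KO and 0 over the E9 libraries, at least 52.2-fold higher (p 0.0350), a call lost without any 1 library (p up to 0.109).

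Between E13 Het epidermis and dermis, 24 of 44 other imprinted genes passed, 4 higher and 20 lower in epidermis, where 34.7% of all genes were called (16.5% higher and 18.2% lower), with a list median of -0.88. The count was 14 without E13 Het replicate 2 and 12, 10 and 9 without dermal replicates 1, 2 and 3. Calls over all genes fell too, from 4504 with all libraries to 2934 without dermal replicate 3. With raw library totals the list's count was 16, 6 higher and 10 lower. Kcnq1ot1, the noncoding RNA of the Cdkn1c domain, was 16.7-fold higher in epidermis (1004 ± 136 CPM in epidermis and 59.9 ± 28.4 CPM in dermis; 4.06 ± 0.34, edgeR adjusted p 0.000110). Copg2 was 3.996-fold higher (1.998 ± 0.24, p 0.000550), in the direction opposite to Mest. Ndn was 15.0-fold lower (-3.91 ± 0.38, p 0.000198) and Dcn 22.3-fold lower (-4.48 ± 0.56, p 0.00126). Sgce was 3.97-fold lower (p 0.00161) and Gnas 1.95-fold lower (p 0.00179). Each of these 6 calls held with each library left out, which does not bear on the RNA selection that differs between the tissues. The annotated span of Kcnq1ot1 also overlaps Kcnq1. Snrpn, Snurf, Slc22a2 and Kcnk9 had 0 counts in all 12 libraries; Snrpn and Snurf overlap each other.

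**Figure D3:**
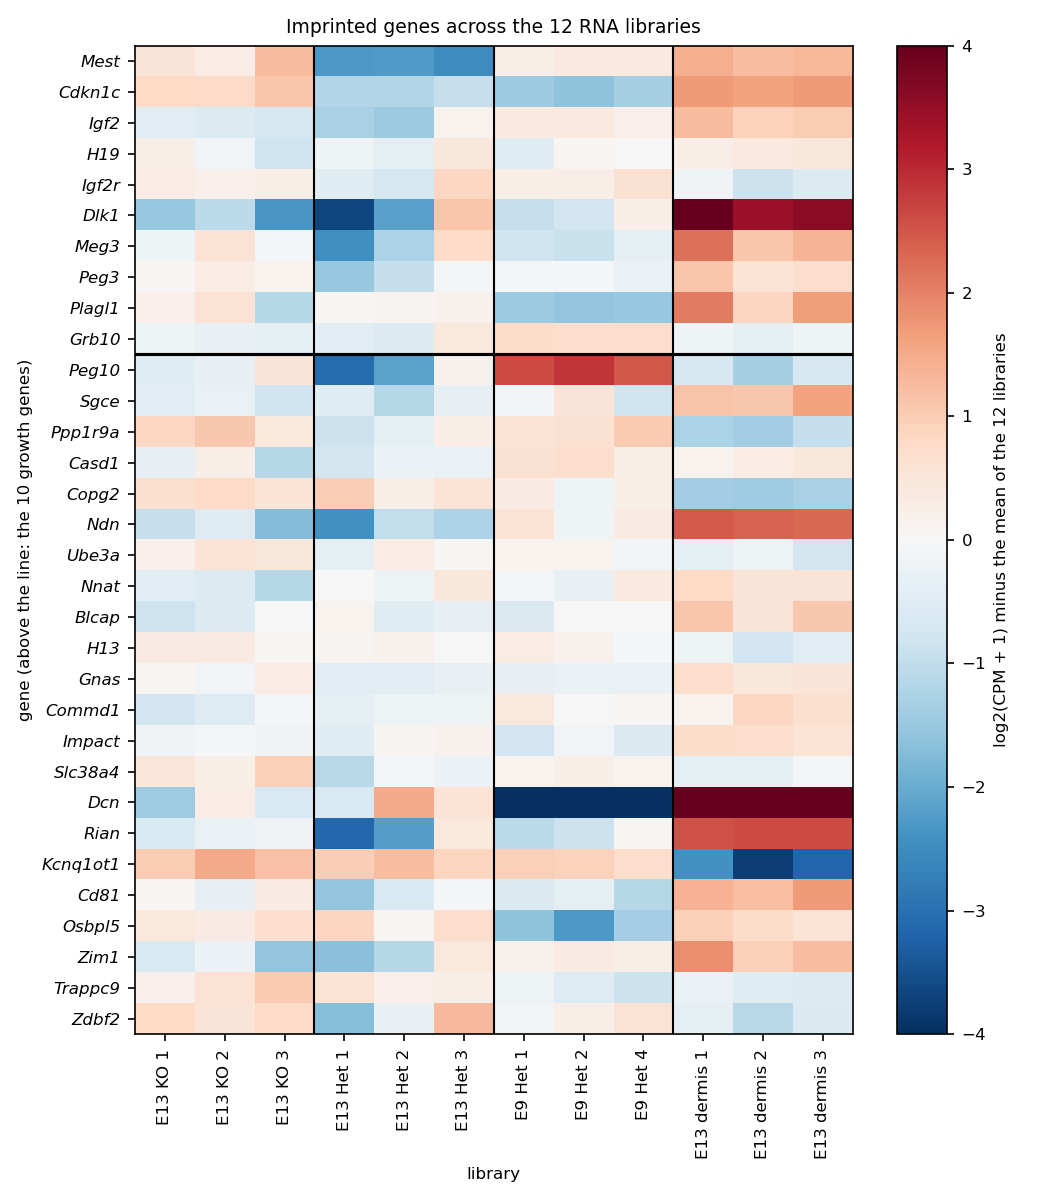
Levels of the 10 growth genes (above the line) and of 22 other imprinted genes whose highest group mean reached 50 CPM, in each of the 12 libraries, as log2(CPM + 1) minus the gene's mean over the libraries. Colour runs from -4 (blue) to 4 (red). Mest is low in the 3 E13 Het epidermal libraries, Dlk1, Ndn, Dcn and Rian are high in dermis, and Peg10 is high in the 3 E9 libraries.

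Of 20 other genes of the insulin-like growth factor pathway, 16 passed the filter in the epidermal fit. In KO against E13 Het epidermis edgeR called 2 lower and none higher (list median -0.22, beside 0.03 over all genes). Over all genes 1.36% were called lower and 0.835% higher. DESeq2 called Igfbp2 as well, a binding protein gene with 764 ± 261 CPM in KO and 332 ± 85.6 CPM in E13 Het epidermis (SD, n = 3 each), whose libraries did not overlap (1.19, edgeR adjusted p 0.0729). Irs1, the adaptor of the insulin and Igf1 receptors, had 96.5 ± 9.91 CPM in KO and 239.8 ± 54.4 CPM in E13 Het epidermis (SD, n = 3 each) and fell 2.51-fold (-1.33 ± 0.19, edgeR adjusted p 0.00148). Igfbp5, a binding protein gene, fell 1.41-fold (-0.49 ± 0.12, p 0.0390), a call lost whichever of the 6 was left out (p up to 0.136). The list medians were -0.42 in E13 Het over E9 and -0.76 in KO over E9. At E13 against E9 the ligand gene Igf1 rose (7.36-fold, p 0.0317; lost without E13 Het replicate 2 or 3 or E9 replicate 1 or 2, p up to 0.150). The binding protein gene Igfbp4 fell 2.85-fold (p 0.00811) and Igf2bp1, which encodes a protein that binds Igf2 mRNA, fell 2.18-fold (p 0.000106). In KO against E9, 4.62% of all genes were called higher and 3.05% lower. There Igf1 rose 14.8-fold (edgeR adjusted p 0.00728, and 0.0569 without E9 replicate 1), and 5 of these pathway genes fell. These were Igfbp4 (4.75-fold, p 0.000791), Igf2bp1 (2.54-fold, p 2.5e-05), Irs1 (2.23-fold, p 0.00163), Igfbp5 (1.63-fold, p 0.00158) and the receptor gene Igf1r (1.76-fold, p 0.0155). The last was lost without KO replicate 1 or E9 replicate 1 or 2 (p up to 0.0701).

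Igf1 averaged 58.4 ± 28.0 CPM in KO and 28.8 ± 19.5 CPM in E13 Het epidermis, against 133 ± 59.3 CPM in dermis (SD, n = 3 each), and the part of mesenchymal cells in its level was not tested. Between E13 Het epidermis and dermis 11 of 15 pathway genes passed, 7 higher and 4 lower (list median 1.06), beside the 16.5% higher and 18.2% lower over all genes. Grb7, a paralogue of Grb10, was 159-fold higher in epidermis (7.31 ± 0.85, edgeR adjusted p 0.000472). Igf2bp1 was 3.30-fold higher (p 0.000127), Igf2bp3 2.71-fold (p 0.000655), Irs1 3.27-fold (p 0.000917) and Igf1r 2.62-fold (p 0.00263). Igfbp4 was 3.74-fold lower (p 0.000308).

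Cdkn1c belongs to the inhibitors of G1 cyclin-dependent kinases. The list set beside it held 16 genes, the other inhibitors, the G1 cyclins, the kinases Cdk2, Cdk4 and Cdk6, the retinoblastoma gene Rb1 and the proliferation marker Mki67, and 14 passed the filter. In KO against E13 Het epidermis (list median -0.16) 1 was called, the D-type cyclin gene Ccnd2, beside 2.2% of all genes. Ccnd2 had 277 ± 30.3 CPM in KO and 557 ± 93.4 CPM in E13 Het epidermis (SD, n = 3 each). It fell 2.03-fold (-1.02 ± 0.15, edgeR adjusted p 0.00198), and the call held with each library left out. DESeq2 called Rb1 too (edgeR -1.50, adjusted p 0.114). The paralogous inhibitor genes Cdkn1a (-1.32 ± 1.04, p 0.741) and Cdkn1b (0.21 ± 0.47, p 0.941) did not pass; they were picked out after their values were seen. At E13 against E9, Ccnd1 fell 2.84-fold (p 0.00414) and Ccnd2 rose 1.51-fold (p 0.0276; lost without any 1 library other than E13 Het replicate 3, p up to 0.113). The list medians were -0.02 in E13 Het over E9 and 0.15 in KO over E9. In KO against E9, Ccnd1 fell 3.80-fold (p 0.000851). Epidermis against dermis had 3 higher and 4 lower of 15 (list median -0.53), beside 16.5% higher and 18.2% lower over all genes. Among those called were Cdk6 (5.90-fold higher, edgeR adjusted p 0.000568), Mki67 (3.85-fold higher, p 0.000173), Ccnd1 (5.09-fold lower, p 0.000488), Cdk4 (2.83-fold lower, p 0.000540), Ccnd3 (2.64-fold lower, p 0.000495) and Cdkn2d (8.64-fold lower, p 0.00286).

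Factors that write, erase or protect DNA methylation at imprinted regions made the last list, 15 genes of which 13 passed. None was called in KO against E13 Het epidermis with edgeR, where 2.2% of all genes were called. Of the 13, 3 were under an unadjusted p of 0.05, and DESeq2 called 1, Uhrf1. The list's median log2 fold change was 0.08 there, 0.03 in E13 Het over E9, 0.05 in KO over E9 and 0.51 in epidermis over dermis. At E13 against E9 the methyltransferase gene Dnmt3a rose 2.99-fold (edgeR adjusted p 5.3e-06) and its paralogue Dnmt3b fell 3.33-fold (p 0.000222). The dioxygenase gene Tet3 rose 1.85-fold (p 0.000641), and Trim28, the corepressor that ZFP57 recruits, fell 1.52-fold (p 0.00725). Tet1 fell 2.49-fold (p 0.0312), a call lost without any 1 library (p up to 0.115). In KO against E9, Dnmt3a rose 3.62-fold (p 1.2e-06), Tet3 2.06-fold (p 0.000185) and Tet2 1.62-fold (p 0.0261). Dnmt3b fell 3.15-fold (p 0.000342) and Trim28 1.45-fold (p 0.0153). The Tet2 call was lost without any 1 library other than E9 replicate 1 (p up to 0.0875) and that of Trim28 without KO replicate 2 or E9 replicate 2 (p up to 0.0713). Epidermis had 7 of 13 higher than dermis and none lower, where 16.5% of all genes were higher and 18.2% lower. Tet3 (2.37-fold, p 0.000871), Dnmt3b (4.06-fold, p 0.00187) and Dnmt1 (1.70-fold, p 0.00761) held with each library left out. Uhrf1, Tet2 and Smchd1 did not, with p up to 0.0861. No methylation was measured in the files used here.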

How the data were processed

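RNA libraries of sorted mouse skin cells were grouped by the labels' age, tissue and genotype, with 3 in a group. The 7 ATAC libraries and the ChIP library of the series were not analysed here. The deposited files hold whole-number counts per gene symbol, made by the authors with TopHat2, Bowtie2 and HTSeq on mm10, per the submitters' processing notes, which give no versions or roles. The annotation and strand setting are not given in the sources used here. Lines that name no gene took 48.8% to 63.8% of all entries in epidermal and 20.2% to 21.6% in dermal files and were left out of totals and tests. Replicates differed by more than sampling noise (15.4 to 227 chi-square units per degree of freedom).

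The 9 epidermal libraries were fitted together with edgeR 4.0.16 in R 4.3.3 (6 residual degrees of freedom), and E13 Het epidermis and dermis in a second fit (4). Genes were kept by filterByExpr, totals scaled by TMM, and contrasts tested with the robust quasi-likelihood test. Its p-values were adjusted by Benjamini and Hochberg's method over all genes tested, with a threshold of 0.05. A standard error is the size of the log2 fold change divided by the root of its F statistic. Printed CPM use TMM totals over the 12 libraries. The procedure was tested on simulated data. Where a group had 0 counts, a bound on the fold took 3 counts in their place and covers counting error only. DESeq2 1.42.0, RLE size factors, raw totals, no filter, other sets of libraries, each library left out and a replicate block were the alternatives.

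The members and gene lists were chosen with earlier results of these data known. Named were Trp63, the 10 members, every called gene of a list in a comparison or, beyond 6, the 6 with the smallest adjusted p, imprinted neighbours of a member, and the 4 genes most like Mest and Cdkn1c by Pearson's r of log2 CPM (prior count 2, mean of at least 10 CPM in 1 group). Other names are said to be chosen after their values were seen. Symbols were matched to RefSeq GRCm38.p6, 21570 of 23432 by symbol and 1712 by synonym.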

Additional observations from a re-analysis of the deposited data

How the results depend on the processing

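Mest and Cdkn1c kept the direction given in the report in all 4 comparisons under every alternative run. Raw totals shifted the median log2 fold change of all genes by 0.44 in epidermis over dermis, and there Mest stood at -3.28, Cdkn1c at -2.35 and H19 at 0.066. Against main counts of 287, 952 and 1001 genes called in KO over E13 Het, E13 Het over E9 and KO over E9, DESeq2 called 811, 1997 and 2172 genes. Over the same comparisons it called 4, 8 and 10 of the other imprinted genes, against 0, 4 and 4 with edgeR. In KO over E9 it called 11 insulin-like growth factor pathway genes and 3 of the G1 list, against 6 and 1 with edgeR. In KO over E13 Het those other imprinted genes numbered 1 with RLE size factors, 3 with raw totals and 3 with no filter. Fitted alone, the compared groups gave 1 member called in E13 Het over E9 and 4 in KO over E9. With no filter, 2 members (Peg3 and Plagl1) were called in epidermis over dermis, where Igf2 had an edgeR adjusted p of 0.0507 and Dlk1 one of 0.140. No count of all genes called is given here for RLE size factors, raw totals, no filter or the groups fitted alone. Nothing about the listed genes is therefore read from their counts under those settings. The causes of these shifts were not tested.

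Leaving out 1 library gave 182 to 348 genes called in KO over E13 Het, 569 to 812 in E13 Het over E9, 557 to 815 in KO over E9 and 2934 to 5269 in epidermis over dermis. Members called ranged from 1 to 6, from 1 to 2 and from 1 to 6 in the last 3 of these. The other imprinted genes called ranged from 0 to 4, 2 to 6, 2 to 3 and 9 to 21. In E13 Het over E9, log2 fold changes ranged from -0.17 to 0.30 for H19, from -2.44 to 0.61 for Dlk1 and from -1.11 to 0.72 for Meg3. In KO over E9 they ranged from -0.32 to 0.15 for H19 and from -0.22 to 0.0026 for Igf2r. In epidermis over dermis they ranged from -0.14 to 0.76 for Igf2r and from -0.28 to 0.27 for Grb10. The lowest values of E13 Het over E9 and of epidermis over dermis in these ranges came without E13 Het replicate 3.

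Deviations from the group means of E13 Het and KO libraries with the same replicate number correlated across genes at -0.049, 0.233 and -0.053. With 3 libraries per group these values cannot decide whether the numbers pair the samples. With the number as a block, 576 genes were called in E13 Het over E9 and 540 in KO over E9, with 1 member in each (Plagl1 in the E13 contrast, Grb10 in the KO contrast; the edgeR adjusted p was 0.0657 for Grb10 in E13 Het over E9 and 0.0523 for Plagl1 in KO over E9), and 13 other imprinted genes in epidermis over dermis. Under the block, E13 Het over E9 was -1.18 for Dlk1 and -0.51 for Meg3, and KO over E13 Het was 0.17 for Dlk1.

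Low rows such as Mir335 (at most 27 counts in a library) and Phlda2 (at most 78) carry wide counting error. With 3 libraries per group, differences within the spread of E13 Het replicate 3 were not detectable.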
